A study of Mus musculus with 6 samples.

Results

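The genes of the cytosolic ribosomal proteins were followed in spleen RNA of leukaemic mice with and without Dox, as the labels call the treatment. They were taken from the table by symbol: names of the form Rpl or Rps followed by a number, the stalk genes Rplp0, Rplp1 and Rplp2, and Rpsa and Fau, kept only where RefSeq calls the gene protein-coding. This gave 85 of 40808 gene IDs, called members here. Of these, 32 encode small subunit proteins, 46 encode large subunit proteins, and 7 are named as like another member (Rpl3l, Rpl7l1, Rpl10l, Rpl22l1, Rpl32l, Rpl39l and Rps27l; called like-genes here). The rule passed over some genes that also encode ribosomal proteins, such as Rpl36al, and dropped Rps4l and Rpl6l, which RefSeq does not list as protein-coding.

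The RNA came from splenic leukaemia cells of mice that had received bone marrow, per the labels. The libraries fell into 2 groups, 3 without Dox (replicates 4, 5 and 6) and 3 with Dox (replicates 10, 11 and 12). The title of the study concerns the control of NOTCH receptors through ubiquitin by UVRAG, ITCH and the ESCRT machinery, and its design text takes the libraries without Dox as the control. The labels state neither the genotype, strain, sex and age of the mice nor the dose and duration of Dox or which gene it was meant to switch. Nothing in them says that the libraries came from separate mice, so p-values measure the spread between these libraries, which may be technical.

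A ribosome is built from a small subunit, which reads the mRNA, and a large subunit, which joins amino acids. Each subunit is a core of ribosomal RNA bound by many small proteins that are needed in equal numbers, apart from the stalk proteins P1 and P2, of which a ribosome carries several copies. Their mRNAs are short, abundant and typically begin with a run of pyrimidines, the terminal oligopyrimidine (TOP) motif, through which growth signals control their translation. In leukaemic and other dividing cells much of the cell's synthesis goes into ribosomes, and MYC raises the transcription of these genes.

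Total counts ran from 5541486 to 8725767 per library, and each tested subunit gene had at least 404 counts in every library. The groups also differed in cell type markers. The 16 T cell markers summed to 2816 to 2961 CPM off Dox and 211 to 262 CPM on Dox, where CPM are counts scaled for library size and composition, and 15 of 16 were lower with Dox. The 12 B cell markers summed to 40.4 to 47.8 CPM off Dox and 2404 to 2560.5 CPM on Dox, and all 12 were higher. The 12 myeloid markers summed to 599.7 to 710.1 CPM off Dox and 2399.6 to 2492 CPM on Dox, with 6 higher, 2 lower (the macrophage markers Adgre1 and C1qb) and 4 not past the threshold. The neutrophil genes S100a8 and S100a9 carried much of the sum on Dox, at 365 and 1184 CPM on average. The 6 platelet markers, all higher, summed to 65.3 to 72.6 CPM off Dox and 234 to 321 CPM on Dox. The 10 stromal and endothelial markers summed to 392 to 431 CPM off Dox and 503 to 683 CPM on Dox, with 3 higher, 2 lower and 4 not past among 9 tested; Cxcl13 alone measured 2.50 CPM off Dox and 115 CPM on Dox on average. The 12 erythroid markers summed to 94272 to 104342 CPM off Dox and 133295 to 143244 CPM on Dox, with 4 higher, 2 lower and 6 not past. The T cell marker Dntt, an enzyme of immature lymphocytes, had 911, 658 and 969 counts off Dox against 7, 0 and 0 counts on Dox. Y-linked genes had no count in any Dox library, where Xist was high, so that sex-linked expression and Dox cannot be told apart. In bulk RNA, fewer cells of a type and less RNA per cell cannot be told apart either, and the part of these differences in the results below was not tested.

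Most ribosomal protein genes fell together. Of 85 members, 81 had enough counts to be tested, and 72 of them were lower with Dox at an adjusted p under 0.05 (edgeR quasi-likelihood test, Benjamini-Hochberg), against 22.1% of all 14110 genes tested. Rpsa and Rplp1 were higher, against 23.6% of all genes, and 7 members did not pass the threshold. The median log2 fold change over the 81 was -1.60 (quartiles -2.07 and -1.11), beside 0.07 over all genes tested. The log2 fold change was below -2 in 24 members, between -2 and -1 in 38, and between -1 and 0 in 17. The libraries with Dox lay wholly below those without in 75 of 81 members, against 29.6% of all genes, and wholly above in 2, against 30.0%. Spread between libraries was small for most subunit genes: the coefficient of variation had a median of 8.68% without Dox and 15.8% with Dox.

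**Figure D1:**
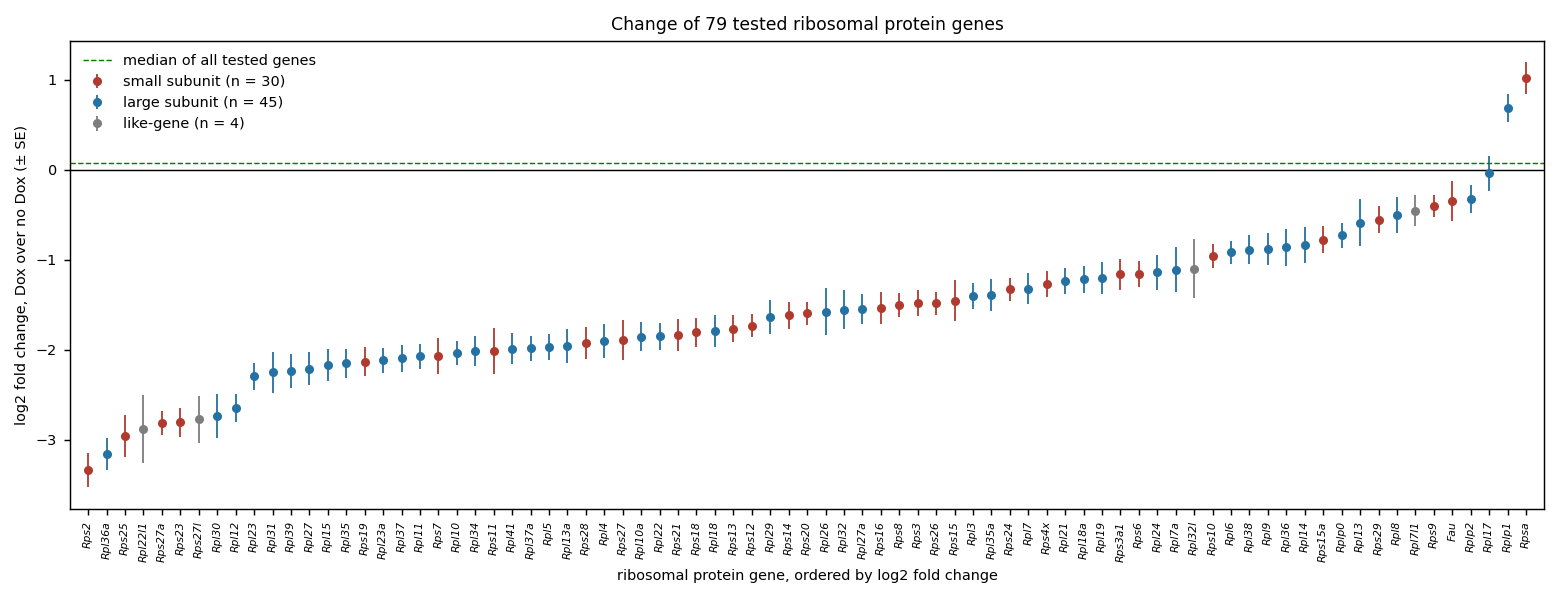
Log2 fold change (Dox over no Dox, edgeR) of 79 of the 81 tested ribosomal protein genes, ordered from lowest to highest, with SE bars; colours mark the small subunit, the large subunit and like-genes, and the dashed line is the median of all tested genes. Values run from -3.34 for Rps2 to 1.02 for Rpsa, both subunits are spread over the whole range, and Rplp1 and Rpsa stand above 0.

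Together the members took 16.4, 15.4 and 14.97% off Dox against 6.95, 7.88 and 7.18% on Dox of each library's counts. The libraries with Dox thus held 2.13-fold less of their counts in these genes, and the groups did not overlap. Haemoglobin and mitochondrial genes took part of the counts in every library. With these left out of the total, the share was 19.7, 18.2 and 17.3% off Dox against 8.83, 9.997 and 9.15% on Dox, again with no overlap.

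Genes of both subunits fell. Of 32 small subunit genes, 29 were lower, 1 was higher (Rpsa) and 2 did not pass, Fau among them, where 22.1% of all genes were lower and 23.6% higher. Of 45 tested large subunit genes, 40 were lower, 1 was higher (Rplp1) and 4 did not pass (Rpl8, Rpl13, Rpl17 and Rplp2). The median log2 fold change was -1.56 for the small and -1.64 for the large subunit (interquartile ranges 0.79 and 0.96). With a trend with transcript length removed, 23 small and 29 large subunit genes were lower, where 21.8% of genes with a length were. The medians in that fit were -0.78 and -0.85. The summed counts of small subunit genes divided by those of large subunit genes came to 0.821, 0.813 and 0.803 off Dox against 0.843, 0.813 and 0.767 on Dox. The groups overlapped in this ratio. The ratio of the median CPM of the subunits was 1.20, 1.18 and 1.16 off Dox against 1.40, 1.38 and 1.27 on Dox, without overlap. This ratio is set by the few genes in the middle of each subunit, which can differ between libraries. Whether the subunits shifted against each other therefore depended on the measure.

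**Figure D2:**
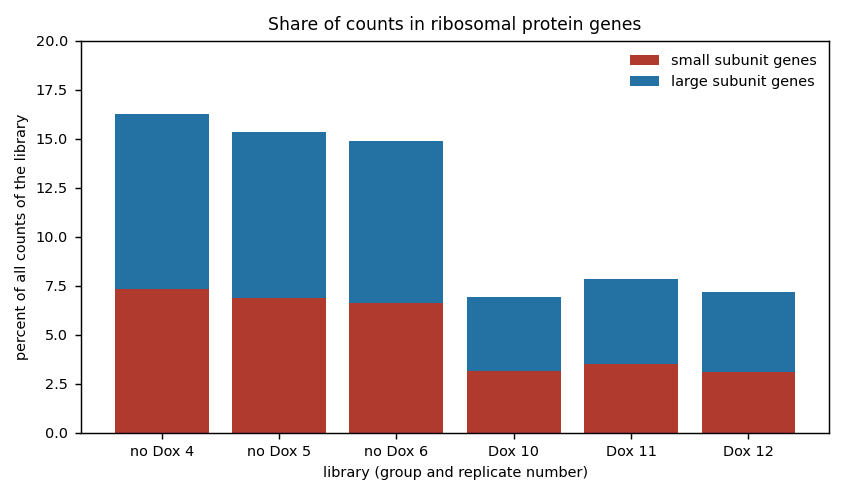
Percent of each library's counts in small subunit genes (lower part of the bar) and large subunit genes (upper part), for 3 libraries without Dox and 3 with Dox. Small subunit genes took 6.61 to 7.33% without Dox and 3.10 to 3.52% with Dox, and large subunit genes 8.24 to 8.93% and 3.76 to 4.33%.

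To show where these mRNAs start, the 30 bases around the RefSeq start (GRCm38.p6) are given for 5 members that begin with the pyrimidine run of a TOP mRNA and for 4 members, among them Rpsa and Rps25, whose annotated start does not. In these 9 the start is also the first base of the RefSeq gene. Each runs 5′ to 3′ with 15 bases before the first transcribed base and 15 from it on. Capitals mark an unbroken run of C and T that begins with C at the first transcribed base and is at least 5 bases long.

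Fau, chr19:6057932-6057961, plus strand: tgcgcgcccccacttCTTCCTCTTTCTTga

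Rpl35, chr2:39005117-39005146, minus strand: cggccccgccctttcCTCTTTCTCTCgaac

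Rps6, chr4:86857353-86857382, minus strand: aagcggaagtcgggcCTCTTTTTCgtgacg

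Rpl15, chr14:18270972-18271001, minus strand: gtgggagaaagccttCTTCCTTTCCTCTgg

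Rplp2, chr7:141447636-141447665, plus strand: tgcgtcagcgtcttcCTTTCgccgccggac

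Rpsa, chr9:120127751-120127780, plus strand: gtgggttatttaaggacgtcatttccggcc

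Rps25, chr9:44407699-44407728, plus strand: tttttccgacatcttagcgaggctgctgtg

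Rpl36a, chrX:134585639-134585668, plus strand: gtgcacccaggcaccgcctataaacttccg

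Rps23, chr13:90923107-90923136, plus strand: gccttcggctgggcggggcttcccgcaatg

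The RefSeq promoter table held 65 of the 85 members, and Rplp1 was not among them. In 15 of 65 (23.1%) an annotated start opened with such a run, compared with 3.01% of all 27025 genes in the table; only the coding strand was read, and annotated starts can differ from those in use. Of the 77 promoters of members, 55 began at the first base of the RefSeq gene, and the others, that of Rps2 among them, lay inside it. Tested members with the run at the start (n = 14) had a median log2 fold change of -1.13, from -2.17 to -0.33, and those without (n = 47) a median of -1.86, from -3.34 to 1.02. The ranges overlapped widely. On either strand of the 300 bases around the start, CCGGAAG, the letters bound by ETS factors, stood in 26 of 65 members (40.0%) and 9.93% of all genes. AAGATGGC, the letters of YY1, stood in 7 (10.8%) and 3.19%, and CACGTG, the E-box bound by MYC and USF, in 6 (9.23%) and 8.09%. CCGGAAG and AAGATGGC can share the letters AAG where one runs into the other, and a match describes the sequence, not a bound site.

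Rpsa stood furthest from the other members. It encodes a small subunit protein near the mRNA exit that is also known as the laminin receptor, and lies at chr9:120127766-120132369 (GRCm38). Its level was 1253, 1009 and 1029 CPM off Dox against 1885, 1975 and 2812 CPM on Dox. Every library with Dox was above every library without (edgeR log2 fold change 1.02, SE 0.18, adjusted p = 0.00127).

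Rplp1, which encodes the stalk protein P1 that recruits elongation factors, lies at chr9:61913283-61914510. It measured 3762, 3122 and 2728 CPM off Dox against 5444, 5699 and 4357 CPM on Dox, again with no overlap (edgeR log2 fold change 0.69, SE 0.16, adjusted p = 0.00548). This call depended on single libraries without Dox: the adjusted p was 0.0703 without replicate 5 and 0.0663 without replicate 6. Rpsa and Rplp1 were the members beyond the upper fence, set 1.5 interquartile ranges above the upper quartile of the 81 log2 fold changes, and no member lay below the lower fence.

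Rplp2, encoding P2, the partner of P1, was at 3508, 3153 and 3046 CPM off Dox against 2943, 2741 and 2048 CPM on Dox. The groups did not overlap, but its adjusted p missed 0.05 (edgeR log2 fold change -0.33, SE 0.16, adjusted p = 0.111), and with a trend with transcript length removed it was called higher (log2 fold change 0.58, adjusted p = 0.00755 by edgeR). Without a low-count filter it was called lower (log2 fold change -0.47, adjusted p = 0.04998 by edgeR). Rplp0, encoding P0, which anchors the P1 and P2 pairs, fell: it measured 1686, 1489.7 and 1436 CPM off Dox against 837, 994 and 953 CPM on Dox (edgeR log2 fold change -0.73, SE 0.14, adjusted p = 0.00186). With the length trend removed its log2 fold change was -0.18 (adjusted p = 0.303 by edgeR). Rpl12, whose protein sits at the base of the stalk, fell from 3249 ± 282 to 517 ± 73.6 CPM (SD, n = 3 each; edgeR log2 fold change -2.65, SE 0.16, adjusted p = 2.40e-06).

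The lowest log2 fold change was that of Rps2, at chr17:24718121-24721927, whose protein lines the mRNA entry channel. It measured 777, 626 and 643 CPM off Dox against 55.0, 77.0 and 69.8 CPM on Dox, and each Dox library was below each library without (edgeR log2 fold change -3.34, SE 0.19, adjusted p = 1.95e-06). Rpl36a, on the X chromosome at chrX:134585654-134588062, encodes a large subunit protein of the tRNA exit site. Its level was 2887, 2807 and 2536 CPM off Dox against 275, 383 and 262 CPM on Dox (edgeR log2 fold change -3.16, SE 0.18, adjusted p = 2.02e-06). Rps25, a protein used by viral internal ribosome entry sites, was at 1254, 1145 and 1078 CPM off Dox against 123, 207 and 117 CPM on Dox (edgeR log2 fold change -2.96, SE 0.23, adjusted p = 9.48e-06). The groups did not overlap in any of these 3 genes.

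**Figure D3:**
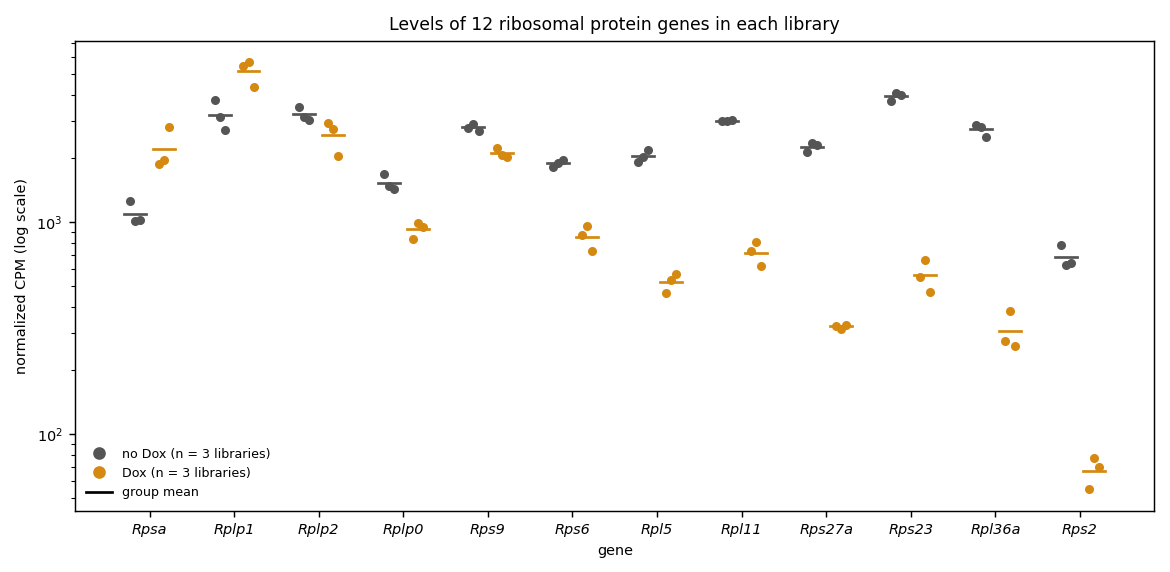
Normalized CPM on a log scale of 12 ribosomal protein genes in each of 3 libraries without Dox (grey) and 3 with Dox (orange), with the group mean as a line. Rpsa and Rplp1 are higher in every Dox library, Rplp2 and Rps9 are slightly lower, and the other 8 genes are lower.

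All 3 members listed for the decoding site fell (Rps15, Rps23 and Rps27a), where 22.1% of all genes were lower. Rps15 did not pass once a trend with transcript length was removed. The list may not be complete, and lists for other sites of the small subunit were mixed. Of 3 members listed at the mRNA entry, 2 were lower and 1 did not pass. Of 4 listed at the mRNA exit, 3 were lower and 1 was higher. Rps27a, which encodes ubiquitin fused to a small subunit protein, went from 2272 ± 113 CPM off Dox to 322 ± 6.75 CPM on Dox (SD, n = 3 each; edgeR log2 fold change -2.82, SE 0.13, adjusted p = 9.87e-07). Rps23, which encodes the protein next to the decoded codon, went from 3930.5 ± 169 CPM off Dox to 561 ± 100.5 CPM on Dox (SD, n = 3 each; edgeR log2 fold change -2.81, SE 0.16, adjusted p = 2.02e-06). Fau, which encodes a ubiquitin-like protein fused to the last small subunit protein, behaved otherwise. It was at 1342, 1195 and 1017 CPM off Dox against 688, 849 and 1262 CPM on Dox, where replicate 12 reached into the range without Dox (edgeR log2 fold change -0.35, SE 0.22, adjusted p = 0.226). Without that library the log2 fold change of Fau was -0.64, with an adjusted p of 0.00561, and with the length trend removed it was 0.65, with an adjusted p of 0.0370 (edgeR), so that the call went either way.

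Rpl5 and Rpl11 bind the 5S ribosomal RNA, and their particle holds MDM2, the inhibitor of p53, when ribosome assembly fails. Both fell: Rpl5 measured 1929, 2023 and 2202 CPM off Dox against 464, 535 and 572 CPM on Dox, and Rpl11 measured 3001, 3015 and 3044 CPM off Dox against 729, 804 and 619.5 CPM on Dox. Log2 fold changes were -1.97, SE 0.14, adjusted p = 5.79e-06 for Rpl5, and -2.07, SE 0.14, adjusted p = 4.21e-06 for Rpl11 (edgeR). Rpl5, Rpl10 and Rpl22 are known to be mutated or deleted in T cell leukaemia. All 3 fell, where 22.1% of all genes were lower, Rpl10 from 1971 ± 24.9 CPM off Dox to 479.8 ± 32.6 CPM on Dox (SD, n = 3 each; edgeR log2 fold change -2.04, SE 0.13, adjusted p = 3.25e-06) and Rpl22 from 1821 ± 233 CPM off Dox to 504 ± 38.4 CPM on Dox (SD, n = 3 each; edgeR log2 fold change -1.85, SE 0.15, adjusted p = 1.08e-05).

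Of 8 members mutated in Diamond-Blackfan anaemia, an inherited failure of red cell production (Rps7, Rps10, Rps19, Rps24, Rps26, Rpl5, Rpl11 and Rpl35a), all 8 fell, with log2 fold changes from -2.13 for Rps19 to -0.96 for Rps10, where 22.1% of all genes were lower. With the length trend removed 6 of the 8 were still lower, and Rps10 and Rpl35a were not. Rps19, the member first linked to it, went from 2083 ± 309 CPM off Dox to 475 ± 42.0 CPM on Dox (SD, n = 3 each). Rps14, lost in the 5q- syndrome of human bone marrow, went from 2238 ± 189 CPM off Dox to 730.2 ± 102 CPM on Dox (SD, n = 3 each; edgeR log2 fold change -1.62, SE 0.15, adjusted p = 2.56e-05). Rps6, the substrate of S6 kinase, also fell, from 1899.7 ± 69.0 CPM off Dox to 852 ± 117 CPM on Dox (SD, n = 3 each; edgeR log2 fold change -1.16, SE 0.14, adjusted p = 0.000144). Rps3, at the mRNA entry and also active in DNA repair, went from 1275 ± 111 CPM off Dox to 456 ± 44.4 CPM on Dox (SD, n = 3 each; edgeR log2 fold change -1.48, SE 0.14, adjusted p = 3.30e-05).

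For the rim of the exit tunnel, through which the new protein leaves, 6 members were listed (Rpl19, Rpl22, Rpl23a, Rpl26, Rpl31 and Rpl35). All 6 fell, and the median of their log2 fold changes was -1.98, where 22.1% of all genes were lower. The list may not be complete: Rpl17 was listed for the tunnel wall only. With the length trend removed 4 of the 6 were still lower, and Rpl19 and Rpl26 were not. Copies held 54.4% of the summed counts of Rpl26 and its copies. In the tunnel wall, Rpl4 and Rpl39 fell (log2 fold changes -1.90 and -2.24, adjusted p = 3.48e-05 and 1.38e-05 by edgeR), while Rpl17 was at 1277, 1242 and 1154 CPM off Dox against 912, 1079.5 and 1581 CPM on Dox. The groups of Rpl17 overlapped (edgeR log2 fold change -0.04, SE 0.20, adjusted p = 0.883). The table lists pseudogenes of Rpl17 that held 67.7% of the summed counts of gene and copies. With their counts added to the gene, the log2 fold change was -0.997, with an adjusted p of 0.000495. Without Dox replicate 12 it was -0.32, with an adjusted p of 0.0467. With the length trend removed Rpl17 was called higher (log2 fold change 0.86, adjusted p = 0.00684 by edgeR), and 4 other alternatives turned its sign without a call. The call for Rpl17 therefore depended on these choices and went either way.

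Of the other members that did not pass, Rpl8 and Rpl13 overlapped between groups because of Dox replicate 12, which stood at 2016 and 2523 CPM against 1174 to 1362 and 1244 to 1497 CPM in the other Dox libraries. Without it both passed the threshold, with log2 fold changes of -0.78 for Rpl8 and -0.96 for Rpl13 (adjusted p = 0.00072 and 0.00261 by edgeR). Both also passed without replicate 6 of the group without Dox (adjusted p = 0.0482 and 0.0454) and with DESeq2 (adjusted p = 0.0301 and 0.0453). Replicate 12 was also the highest Dox library for Rpsa, Fau and Rpl17.

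The 4 X-linked members Rpl10, Rpl36a, Rpl39 and Rps4x all fell, where 22.1% of all genes were lower, in libraries whose sex-linked genes differed by group. Rps4x, whose X-linked human counterpart is expressed from both X chromosomes of females, fell least of the 4, from 2144 ± 168 CPM off Dox to 891 ± 117 CPM on Dox (SD, n = 3 each; edgeR log2 fold change -1.27, SE 0.15, adjusted p = 9.10e-05). Rpl39 went from 3485 ± 499 CPM off Dox to 739 ± 162 CPM on Dox (SD, n = 3 each).

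The unequal change altered the order of the members. Libraries of mRNA 3′ ends give about 1 fragment per transcript whatever its length, so CPM of different genes were compared without a length correction. Counts of genes with near-identical copies are uncertain, and rows of copies were left out here. Copies held 69.7% of the summed counts of gene and copies for Rpl14 and 67.7% for Rpl17. The levels, ranks and gaps below therefore describe the rows of the genes alone, and the order with copies added was not computed. Without Dox the 5 highest subunit genes were Rps21, Rpl41, Rps26, Rps12 and Rpl35, at 4976 ± 847, 4938 ± 539.5, 4814 ± 424, 4764 ± 129 and 4610.3 ± 423 CPM (SD, n = 3 each), neighbours that did not differ beyond their spread. On Dox these 5 measured 1392 ± 272, 1246 ± 253, 1722 ± 97.6, 1431 ± 148 and 1037 ± 171 CPM. With Dox the highest, copies left out, were Rplp1 at 5167 ± 713, Rplp2 at 2577 ± 469.5, Rpsa at 2224 ± 511 and Rps9 at 2118 ± 115 CPM (SD, n = 3 each). Copies of Rpl17, not in this order, had 9638, 13836 and 12388 counts in Dox replicates 10, 11 and 12. Among 78 subunit genes Rplp1 went from rank 17 to rank 1 and Rpsa from rank 65 to rank 3. The gap between the lowest and the highest of the 77 tested subunit genes was 9.78-fold without Dox and 76.8-fold with Dox.

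As a share of all ribosomal protein counts in the same library, which needs no scaling between libraries, Rplp1, Rplp2 and Rpsa together held 4.51, 4.20 and 4.21% off Dox against 16.7, 14.7 and 13.8% on Dox. By this share 19 of 81 members were higher in every Dox library than in any other, 40 were lower and 22 overlapped. Of all 14110 genes, scaled in the same way to the ribosomal protein counts, 60.8% were wholly higher and 8.15% wholly lower. Members with a rising share included Rps9, Rps29, Rplp0 and Rps10. Rps9 measured 2800.5 ± 117 CPM off Dox and 2118 ± 115 CPM on Dox (SD, n = 3 each; edgeR log2 fold change -0.40, SE 0.12, adjusted p = 0.0194). This call was lost without replicate 4 (adjusted p = 0.0509) or replicate 5 (adjusted p = 0.083) of the group without Dox, with upper-quartile scaling (0.0627), with library size only (0.561) and under a filter of 10 counts in every library (0.0939). It turned into a call of higher with the length trend removed (log2 fold change 0.51, adjusted p = 0.00485 by edgeR). The call for Rps29 was also lost without replicate 4 of the group without Dox (adjusted p = 0.0559) and with library size only (adjusted p = 0.203), and with the length trend removed its log2 fold change turned to 0.28 (adjusted p = 0.116; all edgeR).

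Most like-genes, and Rps4l, which is no member, were compared with the member each resembles, in 7 pairs. Rpl22l1 at chr3:28805508-28807424, which can replace Rpl22, was at 799.7, 744 and 625 CPM off Dox against 107, 146 and 41.5 CPM on Dox (edgeR log2 fold change -2.88, SE 0.38, adjusted p = 0.000215). Its counts made up 28.1, 28.8 and 28.4% off Dox against 18.3, 23.1 and 7.04% on Dox of those of Rpl22 and Rpl22l1 together. The share was lower in all 3 Dox libraries (two-sided exact permutation p = 0.1, the smallest that 3 against 3 allow), and replicate 12 was lowest.

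Rps27l, a p53 target that resembles Rps27, was at 603, 523 and 463 CPM off Dox against 64.1, 57.4 and 111 CPM on Dox (edgeR log2 fold change -2.77, SE 0.26, adjusted p = 2.63e-05). It held 11.1, 13.7 and 14.6% off Dox against 6.37, 4.77 and 11.8% on Dox of the counts of the pair, and the groups overlapped (two-sided exact permutation p = 0.2). The table also holds Rps27rt, a near-identical copy of Rps27. With its counts in the denominator the share of Rps27l was 9.20, 10.7 and 11.6% off Dox against 3.30, 3.10 and 6.60% on Dox, with no overlap (two-sided exact permutation p = 0.1). The overlap thus depended on leaving the copy out. Rps27 itself went from 3618 ± 1098 CPM off Dox to 973 ± 161 CPM on Dox (SD, n = 3 each). Rpl7l1, a protein of ribosome assembly in the nucleolus, was at 99.1, 87.3 and 108 CPM off Dox against 66.0, 77.2 and 71.8 CPM on Dox and missed the threshold (edgeR log2 fold change -0.45, SE 0.17, adjusted p = 0.0555). Its adjusted p was under 0.05 in several alternatives, among them 0.0369 with DESeq2, 0.0497 without Dox replicate 11 and 0.038 without Dox replicate 12. Rpl7 fell, from 1655 ± 114 CPM off Dox to 663 ± 138 CPM on Dox (SD, n = 3 each), and the share of Rpl7l1 in the pair was higher on Dox: 6.04, 5.02 and 5.75% off Dox against 8.61, 9.03 and 12.3% on Dox (two-sided exact permutation p = 0.1). Rps4l had 8, 13 and 13 counts off Dox against 34, 99 and 19 counts on Dox, under 2% of Rps4x and Rps4l together in every library (two-sided exact permutation p = 0.1). These 5 tests, of 4 pairs, are all that were made of the 7 pairs, and none could pass 0.05.

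The remaining 3 pairs gave nothing to compare. Rpl3l, the copy of Rpl3 used in muscle, and Rpl10l, used in testis, had 0 counts in all 6 libraries, and Rpl39l had 0 counts in 5 libraries and 5 in Dox replicate 10. Their counterparts were abundant: Rpl3 went from 646 ± 18.4 CPM off Dox to 245 ± 24.3 CPM on Dox (SD, n = 3 each; edgeR log2 fold change -1.40, SE 0.15, adjusted p = 4.92e-05). A floor of 3 counts stands for 0.309 to 0.608 CPM across the libraries and covers counting error only. Rpl28, a core large subunit gene, had 0 or 1 counts per library and was not tested, which leaves its level unknown from this table. Rpl32l, for which no pair was formed, measured 38.3 ± 13.3 CPM off Dox and 17.9 ± 5.03 CPM on Dox (SD, n = 3 each; edgeR log2 fold change -1.10, SE 0.33, adjusted p = 0.0213). Its call was lost without replicate 4 (adjusted p = 0.104) or 5 (0.0652) of the group without Dox, without replicate 10 (0.0608) or 11 (0.0546) of the group with Dox, with library size only (0.0672) and with the length trend removed (0.634).

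Other mRNAs of the TOP class fell with the ribosomal protein genes. Of 27 such genes outside the rule, 25 were lower and none higher (all genes: 22.1% and 23.6%), and the median of their log2 fold changes was -1.42. Eef1a1, the factor that brings aminoacyl-tRNA to the ribosome, went from 4854 ± 151 CPM off Dox to 893 ± 183 CPM on Dox (SD, n = 3 each; edgeR log2 fold change -2.44, SE 0.17, adjusted p = 4.85e-06). Eef2, which moves the ribosome along the mRNA, went from 1589 ± 54.3 CPM off Dox to 594 ± 10.2 CPM on Dox (SD, n = 3 each). Gas5, a TOP RNA that hosts small nucleolar RNAs and encodes no protein, had the lowest log2 fold change of the 27 (edgeR log2 fold change -2.78, SE 0.13, adjusted p = 1.15e-06). Rack1, a scaffold on the small subunit, did not pass, at 1411 ± 60.8 CPM off Dox and 1111 ± 218 CPM on Dox (SD, n = 3 each; edgeR log2 fold change -0.34, SE 0.16, adjusted p = 0.113).

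Of 16 genes for chaperones, assembly partners and nuclear import receptors of ribosomal proteins, 10 were lower and none higher (all genes: 22.1% and 23.6%). Rpf2 and Rrs1, which carry the 5S particle to the precursor of the large subunit, both fell, Rpf2 from 199.8 ± 12.2 CPM off Dox to 38.9 ± 6.17 CPM on Dox (SD, n = 3 each; edgeR log2 fold change -2.36, SE 0.18, adjusted p = 8.71e-06) and Rrs1 from 86.4 ± 11.9 CPM off Dox to 22.5 ± 13.3 CPM on Dox (SD, n = 3 each; edgeR log2 fold change -1.93, SE 0.41, adjusted p = 0.00348). Tsr2, the chaperone of Rps26, was low, at 5.34 ± 0.787 CPM off Dox and 6.73 ± 1.99 CPM on Dox (SD, n = 3 each; adjusted p = 0.621 by edgeR).

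Of 18 genes that control ribosomal protein mRNAs or modify the proteins, 8 were lower and 1 higher (all genes: 22.1% and 23.6%). Larp1, which binds the TOP motif and is a target of mTOR, went from 929 ± 102 CPM off Dox to 184 ± 52.4 CPM on Dox (SD, n = 3 each; edgeR log2 fold change -2.33, SE 0.23, adjusted p = 3.17e-05). Ube2o, the ubiquitin ligase that removes ribosomes from maturing red cells, was the higher gene, from 108 ± 1.22 CPM off Dox to 197 ± 52.7 CPM on Dox (SD, n = 3 each; edgeR log2 fold change 0.87, SE 0.20, adjusted p = 0.00581). Mdm2, at 46.9 ± 9.21 CPM off Dox and 48.1 ± 12.3 CPM on Dox (SD, n = 3 each), and the kinase gene Rps6kb1, at 123 ± 8.80 CPM off Dox and 96.0 ± 8.95 CPM on Dox (SD, n = 3 each), did not pass (adjusted p = 0.913 and 0.104 by edgeR). Genes of mitochondrial ribosomal proteins also fell: 57 of 77 were lower and none higher (all genes: 22.1% and 23.6%), and the median of their log2 fold changes was -1.38. The difference between the cytosolic and the mitochondrial genes was not tested.

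Many short and abundant mRNAs that encode no cytosolic ribosomal protein were also lower with Dox. Among non-members with a representative transcript of at most 1000 bases, 537 of 1345 (39.9%) were lower. Among those in the top 5% by level the number was 318 of 627 (50.7%), and among those both short and in the top 5% it was 97 of 135 (71.9%, median log2 fold change -1.39). The share of members lower, 88.9%, is to be read beside these. Across all 12728 tested genes with a known length, Spearman's rho between log2 fold change and transcript length was 0.25. Across the 81 members it was 0.10 with length and 0.06 with mean CPM. Genes share their libraries and are not independent, so these values are descriptions.

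With a trend of each library with transcript length removed, 54 members were lower and 7 higher (against 21.8% lower and 22.0% higher of 12728 genes with a length), and the median member log2 fold change was -0.84 in place of -1.60. Among those higher in that fit were Rpsa, Rplp1, Rpl17, Fau, Rplp2 and Rps9. Of the 72 members lower as reported, 18 were not lower in it: Rplp0, Rpl6, Rpl7a, Rpl9, Rpl14, Rpl19, Rpl24, Rpl26, Rpl32l, Rpl35a, Rpl36, Rpl38, Rps3a1, Rps9, Rps10, Rps15, Rps15a and Rps29. Rps2, Rpl36a, Rps23 and Rps27a, 4 of the 54 that were lower in both fits, had log2 fold changes of -2.60, -2.17, -2.04 and -1.84. The size of the common fall thus depended on this correction.

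**Figure D4:**
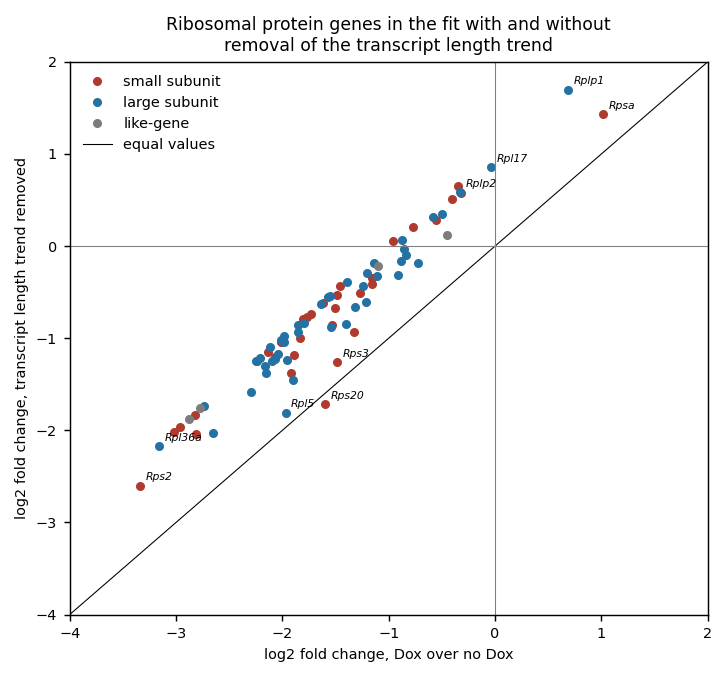
Log2 fold change (Dox over no Dox) of each tested ribosomal protein gene as reported (horizontal axis) and after removal of the transcript length trend (vertical axis), coloured by subunit, with a line of equal values. Most points lie above the line of equal values, and Rps2 and Rpl36a stay lowest and Rplp1 and Rpsa highest.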

How the data were processed

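RNA of 6 spleen libraries was sequenced from the 3′ end of mRNAs (QuantSeq, forward version), per the labels' protocols. The authors deposited a table of raw counts by Entrez gene ID, whose 6 columns all matched a library, with 0 left over. The submitters' processing notes name STAR, featureCounts and GRCm38; the annotation, strand setting and treatment of reads with several matches are not given in the sources used here, so counts of genes with near-identical copies are uncertain.

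Symbols came from a RefSeq table (GRCm38.p6), which matched 39374 of 40808 IDs. The members, lists and comparisons were chosen with earlier results of these data known. All genes were fitted together with edgeR 4.0.16 in R 4.3.3: filterByExpr (minimum count 10, minimum total 15), TMM scaling, quasi-likelihood F-test, Benjamini-Hochberg adjustment over 14110 genes, threshold 0.05. Standard errors were derived from the F statistic. DESeq2 1.42.0 and limma-voom 3.58.1 were alternatives, as were other scalings, filters and leaving out each library; removal of a length trend and addition of copies, also to the Rps27 pair, were chosen after seeing the data. Transcript lengths and copies came from GENCODE M21, with the APPRIS principal transcript of each gene. A copy was a row named as a pseudogene of a member, or one whose transcript matched the last 200 bases of the member's at 95% identity over 80% of its length. On simulated counts of 13458 tested genes of which 189 carried a log2 change of 2, edgeR called 67.2% of those changed and 11 of 13269 others. Genes described in full were a fixed list, the 5 highest and 5 lowest log2 fold changes, those beyond 1.5 interquartile ranges, and the 5 highest levels; any other gene was picked with its values in view. Some genes that this rule names are not reported here by name and are only part of counts and medians.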

Additional observations from a re-analysis of the deposited data

How the results depend on the processing

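No paired analysis was possible because the replicate numbers of the groups do not overlap. Leaving out each library in turn, 69 to 77 members were lower and 1 to 2 higher; without replicate 5 or 6 of the group without Dox, Rplp1 was no longer called. The number lower stayed within 1.5 times 72 in all alternatives tried, and the number higher was 2 in all but those fits and the removal of the length trend, with 7. With library size only, which shifts the median over all genes by 0.31, the median log2 fold change was -1.25 for the small and -1.32 for the large subunit. Without a low-count filter they were -1.70 and -1.87, with the length trend removed -0.78 and -0.85, and under a filter of 10 counts in every library the large subunit median was -1.52. Leaving out libraries, the medians ran from -1.69 to -1.57 and from -1.84 to -1.60. The difference in the share of counts, -8.27 percentage points (Dox minus no Dox), was -9.07 without haemoglobin and mitochondrial genes, -9.03 with rows named as pseudogenes added, and -8.59 to -7.87 with a library left out. The difference in the small to large ratio, -0.0043, reversed to 0.17 by median CPM and ran from -0.0220 to 0.0162 with a library left out, positive without Dox replicate 12. With the length trend removed, the log2 fold changes of Fau (0.65), Rplp2 (0.58), Rps9 (0.51), Rps29 (0.28), Rps10 (0.051), Rpl8 (0.34), Rpl13 (0.31), Rpl7l1 (0.12) and Rpl17 (0.86) reversed. Rpl17 also reversed with upper-quartile scaling (0.057), library size only (0.26), at least 10 counts in every library (0.078) and without Dox replicate 10 (0.094), and ranged from -0.316 to 0.094 with a library left out. The cause was not tested. Of 846 fits of 47 named genes, 791 kept direction and side of the threshold.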

Other observations

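Copies of ribosomal protein genes carried counts of their own. The table holds 36 rows that are near-identical copies or named pseudogenes of 17 members, and 34 of these rows had counts. Together they took 1.89% ± 0.079 of all counts off Dox against 0.885% ± 0.035 on Dox (SD, n = 3 each), and the groups did not overlap. In 14 members the copies held over 10% of the summed counts of gene and copies, with the highest shares for Rpl14 (69.7%), Rpl17 (67.7%), Rpl26 (54.4%) and Rps6 (54.4%). The 68 members without such a row had a median log2 fold change of -1.63 over the 64 tested, and the 17 with one -1.55.

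The pseudogene rows Rps12-ps11 to Rps12-ps15 were nearly equal to each other in each library. Their counts ran from 432 to 451 in replicate 4, 377 to 395 in replicate 5 and 307 to 325 in replicate 6 without Dox, and from 152 to 154, 236 to 242 and at 273 in replicates 10, 11 and 12 with Dox.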
